A study of Danio rerio with 18 samples.

Results

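The cytosolic ribosomal protein genes of the zebrafish embryo were followed gene by gene through 18 RNA-Seq libraries. Members were all genes whose symbol starts with rpl, rps or rplp and a number, without the S6 kinases (rps6k) and rps27l, and 83 of the 32521 gene identifiers in the count files qualified. They comprised 42 genes of the large subunit, 35 of the small subunit, 4 of the stalk (rplp0, rplp1, rplp2 and rplp2l) and 2 genes, rpl7l1 and rps19bp1, whose symbols match but whose products are not known as parts of the finished ribosome. Embryos of Tg(ddx4:ddx4-EGFP) females on the ABTL background and casper males were injected at the 1-cell stage, into the yolk, with 0.7 ng of StCsm(EGFP) in 1 nL, or with diluted storage buffer without the complex (mock). StCsm(EGFP) is a type III CRISPR-Cas complex that cuts RNA, loaded with a guide RNA against EGFP and deficient in its DNase activity. Both injections were harvested at the 128-cell stage, 5 hours post fertilization (hpf) and 24 hpf, as pools of 25 whole embryos, in 3 independent experiments (batches 1 to 3), which gave 6 conditions of 3 libraries each. All embryos, mock included, could carry the transgene, whose EGFP is supplied by the mother from the ddx4 promoter and lasts in germ cells, and the fish were both homo- and heterozygous for it.

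As background, each cytosolic ribosome holds 1 copy of nearly every ribosomal protein, and only the stalk proteins rplp1 and rplp2 sit on it in several copies. Early zebrafish embryos live on RNA and ribosomes laid down by the mother, until the genome of the embryo is switched on in the blastula and most maternal RNA is cleared. In mammals, ribosomal protein mRNAs begin with a 5′ terminal oligopyrimidine (TOP) tract that couples their translation to growth signals. Teleost genomes hold extra copies of some genes from an ancient genome duplication, so that 1 human gene can correspond to a pair in zebrafish.

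The libraries held 11763787 to 21092691 reads assigned to genes. Each of the 83 genes had reads in every library, and the lowest count was 4. EGFP, the targeted transcript, stood at 135, 238 and 95.8 CPM (read counts scaled to a common library size) in StCsm(EGFP) libraries of the 128-cell stage, against 165, 285 and 162 CPM in the mock libraries of the same batches, and at 1.19 to 2.35 CPM in all libraries of 24 hpf. Stage markers followed the labels. The summed level of 9 maternal genes was 134 to 184 CPM at 24 hpf, against 3726 to 5071 CPM at the 128-cell stage, and that of 10 early zygotic genes was 2578 to 3615 CPM at 5 hpf, against 3.35 to 15.2 CPM at the 128-cell stage. CPM values here are scaled with TMM over all 18 libraries, a scaling that assumes most genes alike. Since pools of whole embryos were sequenced, more cells that express a gene and more RNA per cell cannot be told apart. The RNA was captured by its poly(A) tail, and whether levels differ in RNA amount or in capture was not tested.

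In mock embryos the 83 genes together took 2.90, 2.21 and 1.92% of the assigned reads at the 128-cell stage, followed by 6.15, 2.92 and 4.51% at 5 hpf and by 19.8, 19.6 and 19.5% at 24 hpf (batches 1, 2 and 3). The means were 2.34% ± 0.50, 4.53% ± 1.61 and 19.6% ± 0.14 (SD, n = 3 each). The spread between mock batches was thus widest at 5 hpf. There mock batch 2 had the lowest level of all 6 libraries for 69 of the 83 genes, and mock batch 1 the highest for 78. In StCsm(EGFP) embryos the share was 2.46, 1.57 and 1.57% at the 128-cell stage, followed by 5.89, 5.27 and 3.35% at 5 hpf and by 21.8, 14.5 and 18.7% at 24 hpf. At 24 hpf StCsm(EGFP) batch 2 had the lowest level for 77 genes, and StCsm(EGFP) batch 1 the highest for 77.

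**Figure D1:**
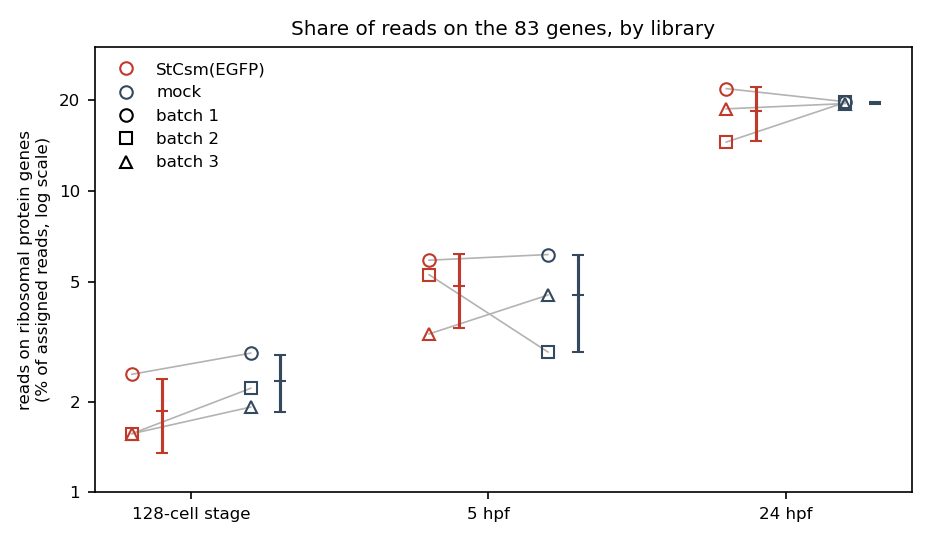
Share of assigned reads on the 83 ribosomal protein genes in each of the 18 libraries (percent, log axis), with lines joining the libraries of 1 batch and bars for the mean ± SD of 3 libraries. The share was at most 2.90% in the libraries of the 128-cell stage and at least 14.5% in those of 24 hpf, and at 5 hpf the lines of the batches cross.

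The developmental comparison asked how far each gene changed between stages, and was fitted on the 9 mock libraries with the batch as a term (edgeR's quasi-likelihood test, adjusted p under 0.1 over all genes tested). Between the 128-cell stage and 5 hpf all 83 genes were higher at 5 hpf, where 36.7% of all 19100 genes tested were called higher. Their median log2 fold change was 1.63 (a factor of 3.10), with a range of 0.98 to 2.75, beside a median of -0.01 over all genes. For 78 genes the 3 mock libraries of 5 hpf all lay above those of the 128-cell stage, as did 34.2% of all genes. Between 5 hpf and 24 hpf 80 genes were called higher and 3 lower, against 41.7% and 40.0% of all genes, with a median of 2.57 (a factor of 5.95) beside 0.04 over all genes. From the 128-cell stage to 24 hpf 82 genes were called higher, against 47.0% of all genes, with a median of 4.22 (a factor of 18.6) beside 0.23 over all genes. The estimate of the second step was larger than that of the first for 80 of the 83 genes. This order varied by batch. The medians of the first and second step were 1.91 and 1.92 in batch 1, 1.03 and 3.19 in batch 2, and 1.81 and 2.69 in batch 3. Both steps share the mock libraries of 5 hpf, and the difference between the steps was not tested. The StCsm(EGFP) libraries, which share no library with the mock fit, gave 82, 80 and 81 genes called higher and medians of 2.07, 2.16 and 4.30 for these comparisons. Of all 19300 genes tested there, 14059, 15154 and 16368 were called in either direction, and 50.1, 48.3 and 46.6% of these calls were lower. The medians over all genes were -0.02, 0.04 and 0.19.

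Scaling by library totals in place of TMM lowered the median of all genes to -0.64, -0.36 and -0.79 for these comparisons and that of the ribosomal protein genes to 0.98, 2.18 and 3.18. Relative to the median of all genes, the ribosomal protein genes were then 1.62, 2.54 and 3.97 higher, against 1.65, 2.54 and 3.98 with TMM. A scaling moves all genes of a library alike, so that this difference stays nearly the same by construction. It is therefore no test of the rise. The share of reads on the 13 mitochondrially encoded genes differed between stages too, and was 7.50, 7.52 and 5.91% at the 128-cell stage, followed by 15.8, 7.03 and 9.64% at 5 hpf and by 18.7, 13.2 and 16.1% at 24 hpf in mock embryos, and its part in the change was not tested.

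**Figure D2:**
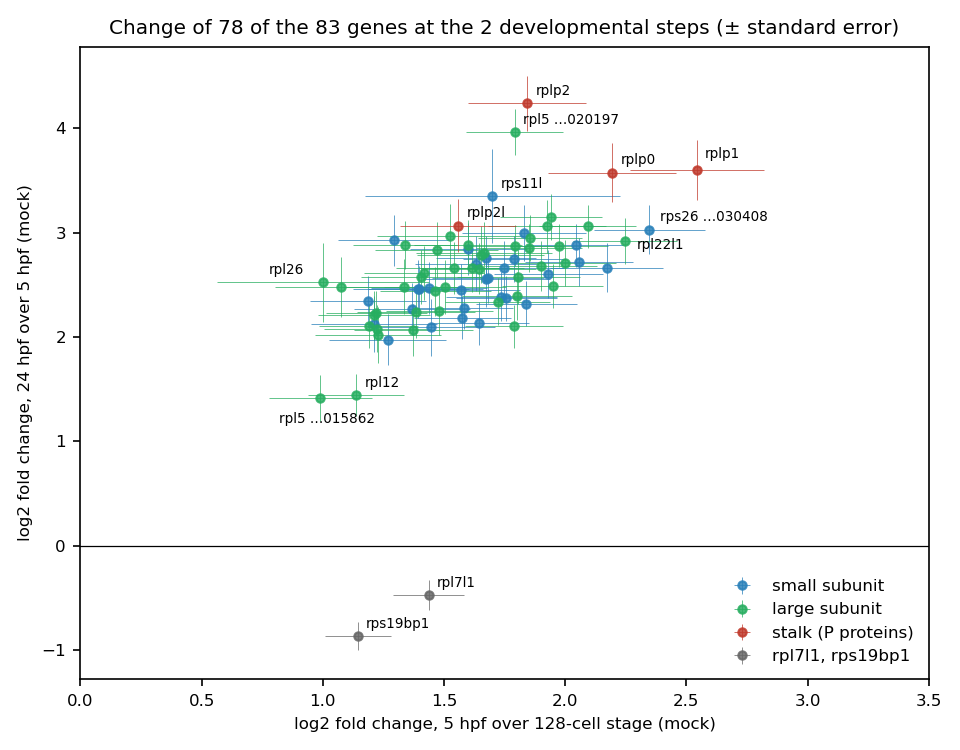
Log2 fold change of 78 of the 83 genes in mock embryos between the 128-cell stage and 5 hpf (horizontal) and between 5 hpf and 24 hpf (vertical), with bars for the standard error of the fit and colors for the subunit. Of the 78 genes drawn, 76 lie above the line at 0 on the vertical axis, the stalk genes rplp0, rplp1 and rplp2 lie in the upper part, and rpl7l1 and rps19bp1 lie below 0.

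The stalk is a flexible arm of the large subunit that recruits the translation factors. Its 4 genes had medians of 2.02 for the first step, 3.59 for the second and 5.92 for both, the highest of the subunit groups. The gene rplp0 (ENSDARG00000051783), which anchors the stalk, had 278, 200 and 154 CPM in mock embryos of the 128-cell stage, 1553, 612 and 807 CPM at 5 hpf and 11033, 11140 and 10428 CPM at 24 hpf. Its 3 stages did not overlap, and the log2 fold change over both steps was 5.77 ± 0.31 (SE, adjusted p = 1.25e-09, edgeR). Of the genes it holds, rplp1 (ENSDARG00000021864) changed by 6.14 ± 0.32 over both steps and had 6371, 6155 and 6578 CPM at 24 hpf, against 149, 78.1 and 70.3 CPM at the 128-cell stage.

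For rplp2 (ENSDARG00000101406), the other partner in the stalk, mock embryos held 47.4, 25.1 and 20.1 CPM at the 128-cell stage, 204, 61.3 and 83.1 CPM at 5 hpf and 2164, 1674 and 1867 CPM at 24 hpf. Its second step, 4.24 ± 0.27, was the largest estimate of that step among the 83 genes (adjusted p = 1.05e-08, edgeR). Batch 1 was the highest library at each of the 3 stages for this gene. The related rplp2l (ENSDARG00000011201) changed less, by 4.62 ± 0.27 over both steps, with 3350, 3135 and 3443 CPM at 24 hpf, against 173, 128 and 117 CPM at the 128-cell stage.

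The large and the small subunit moved by similar amounts. The 42 large-subunit genes had medians of 1.57, 2.59 and 4.21 for the first step, the second step and both, and the 35 small-subunit genes had 1.66, 2.47 and 4.16. Over both steps 68 of the 83 genes had log2 fold changes between 3 and 5, and 10 exceeded 5.

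Large first steps were those of the stalk gene rplp1 with 2.54 ± 0.28, rps26 (ENSDARG00000030408) with 2.35 ± 0.23, rpl22l1 (ENSDARG00000010244) with 2.25 ± 0.21 and rplp0 with 2.19 ± 0.26. The protein of rps26 lies near the mRNA exit of the small subunit, and rpl22l1 is a relative of the RNA-binding protein gene rpl22. At the lower end of the first step stood rpl24 (ENSDARG00000099104), a gene of a bridge between the subunits, with 1.08 ± 0.28. It had 1022, 314 and 601 CPM at 5 hpf, against 371, 291 and 212 CPM at the 128-cell stage, so that the stages overlapped, and the step within batch 2 was 0.12. Without batch 2 the members' median of the first step was 1.86 and without batch 1 it was 1.44.

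Apart from rpl7l1 and rps19bp1, described further on, genes with a small change over both steps included the rpl5 copy ENSDARG00000015862, with 2.40 ± 0.22. The rpl5 protein enters the large subunit together with rpl11 and the 5S rRNA. This copy held 686, 556 and 473 CPM at the 128-cell stage, 1672, 771 and 1044 CPM at 5 hpf and 2995, 2857 and 2964 CPM at 24 hpf in mock embryos, and the stages did not overlap. Another was rpl12 (ENSDARG00000006691), whose protein forms the base of the stalk with rplp0, with 2.58 ± 0.21. Its levels were 3269, 3433 and 3432 CPM at 24 hpf, against 609, 505 and 619 CPM at the 128-cell stage.

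The 2 genes that are not parts of the finished ribosome went their own way in the second step. In human cells RPL7L1 is a relative of RPL7 with a role in making the large subunit, and RPS19BP1 binds RPS19. In mock embryos rpl7l1 (ENSDARG00000042864) had 67.4, 52.0 and 63.3 CPM at the 128-cell stage, 163, 176 and 153 CPM at 5 hpf and 108, 121 and 122 CPM at 24 hpf. It was thus highest at 5 hpf in each batch, with a first step of 1.44 ± 0.15 and a second of -0.47 ± 0.14 (adjusted p = 0.00865, edgeR). For rps19bp1 (ENSDARG00000091124) the levels were 59.2, 54.3 and 53.7 CPM, 120, 131 and 117 CPM, and 62.3, 66.8 and 71.1 CPM at the 3 stages. Its second step was -0.87 ± 0.14 (adjusted p = 6.10e-05, edgeR), and over both steps it was called higher by 0.28 ± 0.14 with TMM (adjusted p = 0.0712, edgeR) but lower, with -0.76, with library totals. The call with TMM was lost without batch 2, without batch 3 and in the StCsm(EGFP) libraries (adjusted p = 0.131, 0.434 and 0.376). With library totals rpl7l1 had -0.07 over both steps, against 0.96 with TMM.

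Pairs of related genes were then set against each other within each library. Described here are the pairs of identifiers that share the symbol rpl5 or rps26, and pairs that differ by a suffix of the symbol (rplp2 and rplp2l, rps27.1 and rps27.2, rpl22l1 and rpl22, rpl7l1 and rpl7). The share of the first gene in the reads of the pair was compared between conditions on the log2 ratio, with a two-sided exact permutation test. Its smallest p with 3 against 3 libraries is 0.1, so that no pair could pass 0.05. Unlike the edgeR fits, it ignored which libraries came from the same batch. All 63 comparisons were adjusted together, and the smallest adjusted p was 0.217. Shares are of reads, not corrected for transcript length, so that their change and not their level is read here. Reads that align to several places were left out of the gene counts by the authors (3.77 to 14.8% of all listed counts), and whether stretches shared by the copies lowered either count was not tested.

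The share of rpl5 ENSDARG00000020197 in its pair was 12.1, 11.8 and 12.6% at the 128-cell stage in mock embryos, followed by 18.4, 20.1 and 20.2% at 5 hpf and by 59.4, 57.7 and 58.7% at 24 hpf. In StCsm(EGFP) embryos it was 11.3, 11.4 and 11.5%, 18.7, 20.7 and 20.4%, and 60.4, 53.8 and 57.4%. Neither injection had overlapping stages, and the log2 ratio of the copies rose by 3.35 in mock embryos over both steps, with an SD over batches of 0.05. At the 128-cell stage the 3 StCsm(EGFP) libraries lay below the 3 mock libraries by -0.11 on the log2 scale (exact p = 0.1, adjusted p = 0.217 over the 63 comparisons). In levels, this copy held 4375, 3898 and 4222 CPM at 24 hpf, against 94.7, 74.5 and 68.0 CPM at the 128-cell stage in mock embryos, which is a log2 fold change of 5.75 ± 0.24, against 2.40 for its partner.

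The log2 ratio of the rpl5 copies moved by 0.81 at the first step and by 2.54 at the second. The share of rps26 ENSDARG00000030408 was 31.8, 29.5 and 32.1% at the 128-cell stage, followed by 49.6, 51.6 and 49.5% at 5 hpf and by 61.6, 63.0 and 60.6% at 24 hpf. For rps27.1, one of 2 genes for a zinc finger protein of the small subunit, the mean share was 40.6%, 50.6% and 56.3% at the 3 stages. In these 3 pairs the stages did not overlap in mock embryos.

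The share of rplp2 in its pair with rplp2l followed the batch as well as the stage. It was 21.5, 16.4 and 14.7% in mock embryos at the 128-cell stage and 19.9, 15.5 and 13.8% in StCsm(EGFP) embryos, with batch 1 highest and batch 3 lowest for both injections, and the same order held at 5 hpf. At 24 hpf the mock libraries had 39.2, 34.8 and 35.2%, above all libraries of the earlier stages. In contrast, rpl22l1 had a mean share of 40.1%, 42.7% and 40.5% of its pair with rpl22 at the 3 stages in mock embryos, with overlapping stages and a change over both steps of 0.03 on the log2 scale, with an SD over batches of 0.24. The share of rpl7l1 in its pair with rpl7 was 32.3%, 25.1% and 3.14% on average, and at 24 hpf it lay below the earlier stages in every mock library.

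**Figure D3:**
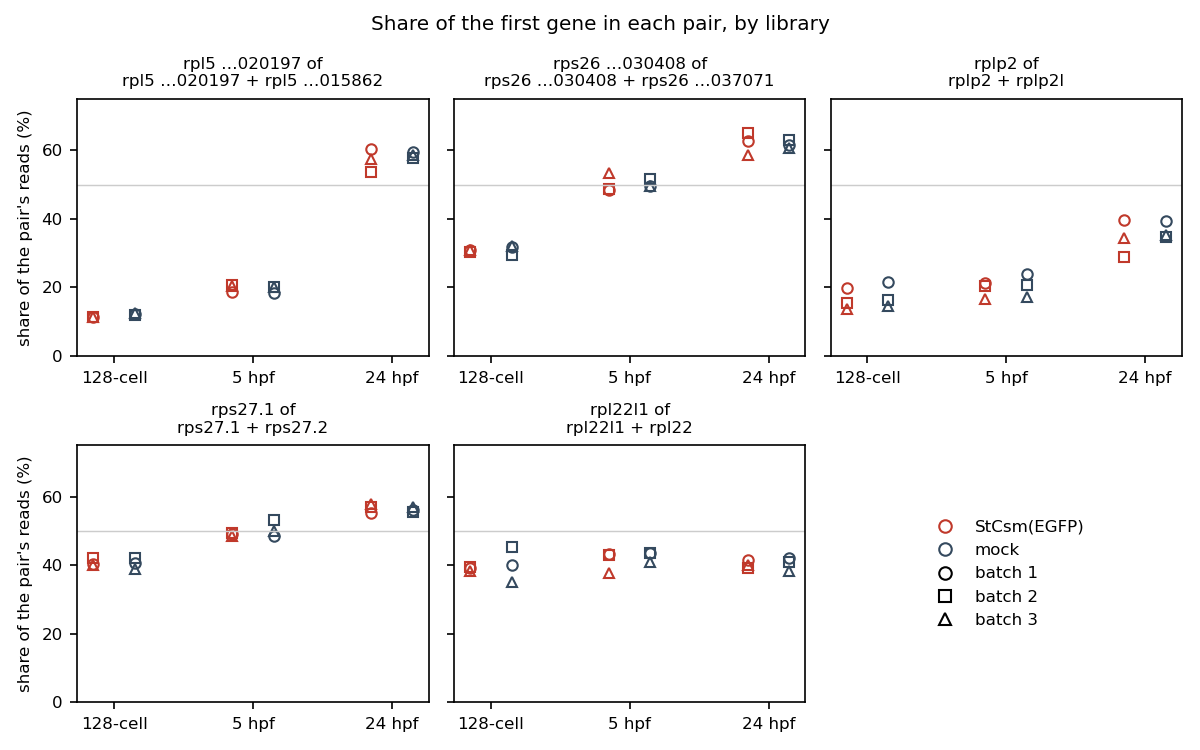
Share of the first gene in the reads of each pair (percent of the pair's reads) in each library, StCsm(EGFP) left of mock at each stage, with symbols for the batch and a grey line at 50%. The shares of the first copies of rpl5, rps26 and rps27.1 increase over the stages for both injections, and that of rpl22l1 stays between 35.1 and 45.3%.

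The gene rps11l (ENSDARG00000093606) had few reads and differed widely between batches at 24 hpf. In mock embryos it had 0.86, 0.98 and 0.62 CPM at the 128-cell stage, 2.16, 3.20 and 2.55 CPM at 5 hpf and 6.68, 45.4 and 40.5 CPM at 24 hpf. The StCsm(EGFP) libraries of 24 hpf had 9.36, 27.8 and 14.7 CPM, so that batch 1 was the lowest for both injections.

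The comparison of the injections asks whether StCsm(EGFP) changed genes other than its target. At the 128-cell stage 74 of the 83 ribosomal protein genes were called lower in StCsm(EGFP) embryos and 0 higher, where 2.79% of all 15498 genes tested were called lower and 2.26% higher (edgeR's quasi-likelihood test with the batch as a term, adjusted p under 0.1). The values of the genes lay close together. Their log2 fold changes had a median of -0.38 (a factor of 0.77), quartiles of -0.42 and -0.33 and an SD of 0.14, and 69 of the 83 lay within 0.1 of the median, beside a median of -0.00067 over all genes. The standard errors had a median of 0.07. The genes also moved together between libraries, with mock batch 1 the highest for 78 and StCsm(EGFP) batch 3 the lowest for 57. Their calls are thus not independent of each other. By subunit, 39 of 42 large-subunit genes, 31 of 35 small-subunit genes and all 4 stalk genes were called lower, with medians of -0.39, -0.38 and -0.44.

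In batches 1, 2 and 3 the median log2 ratio of StCsm(EGFP) over mock was -0.26, -0.55 and -0.32, and 80 genes were lower in all 3 batches, as were 20.9% of all genes. The summed level of the 83 genes was 17714, 10540 and 10250 CPM in StCsm(EGFP) embryos, against 20125, 15171 and 13264 CPM in mock embryos. From the highest to the lowest batch, each injection differed by more than StCsm(EGFP) and mock differed within any batch. The highest StCsm(EGFP) library thus lay above 2 of the 3 mock libraries. Only for rps11l did the groups not overlap, where 1.71% of all genes did not overlap in this direction. Without the batch as a term 0 of the 83 genes were called, and 0 of all 15498 genes tested. The median of the 83 genes was still -0.37. A fit of all 18 libraries, with the batch within each stage as a term, also called 0, with a median of -0.38. That fit called 6 of all 20231 genes tested. Without batch 2, 44 genes were called, with a median of -0.30, and without batches 1 or 3, 60 and 76 genes. Over all genes, 783 were called with all batches, 102 without batch 2, 234 without batch 1 and 875 without batch 3.

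**Figure D4:**
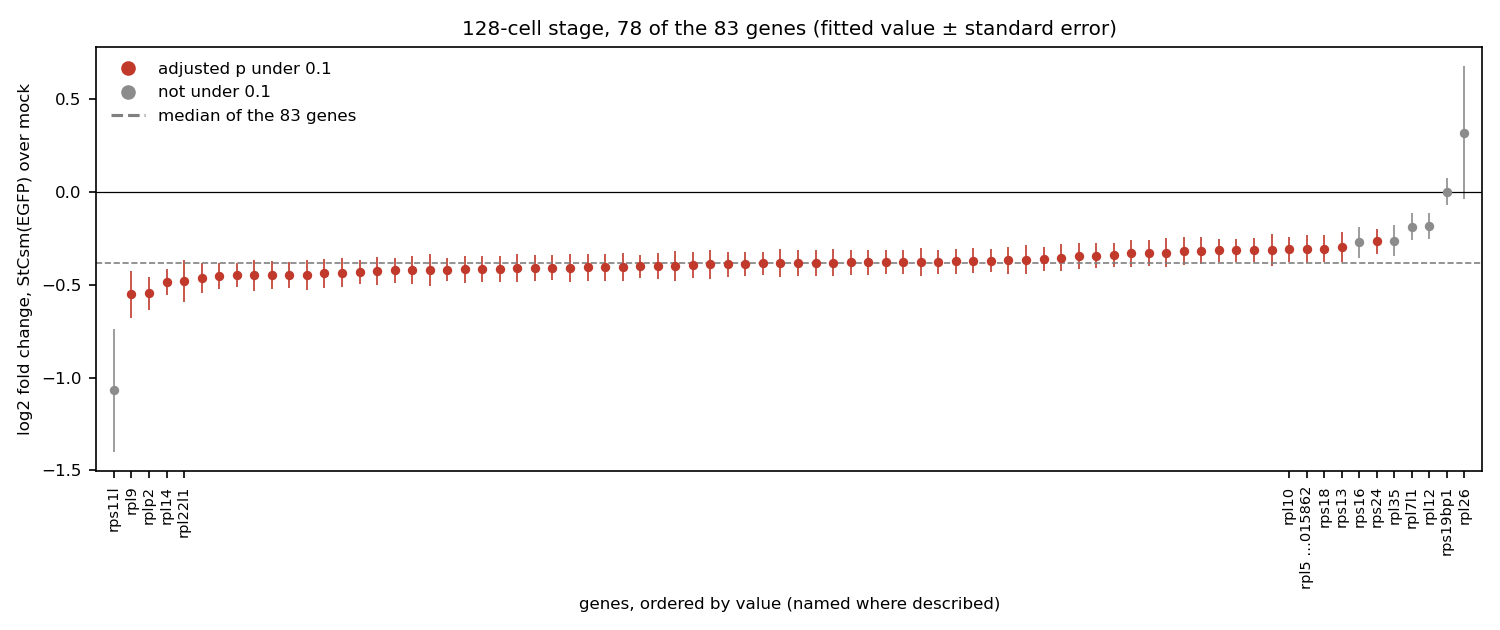
Log2 fold change of StCsm(EGFP) over mock at the 128-cell stage for 78 of the 83 genes, ordered by value, with bars for the standard error of the fit and names for the genes described in the text. Red points mark genes with an adjusted p under 0.1 (71 of those drawn), and the dashed line marks the median of the 83 genes, -0.38.

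Among the genes with the most negative values of those called were rpl9, rplp2, rpl14 and rpl22l1. The large-subunit gene rpl9 (ENSDARG00000037350) had 9.99, 6.47 and 5.07 CPM in StCsm(EGFP) embryos, against 13.4, 9.05 and 8.52 CPM in mock embryos, a log2 fold change of -0.55 ± 0.13 (adjusted p = 0.0502, edgeR). The call of rpl9 was lost without batch 1 or without batch 2 (adjusted p = 0.157 and 0.169). The stalk gene rplp2 had 35.5, 16.3 and 13.4 CPM in StCsm(EGFP) embryos, against 47.4, 25.1 and 20.1 CPM in mock embryos, with -0.55 ± 0.09 (adjusted p = 0.0154, edgeR).

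For rpl14 (ENSDARG00000103433), of the large subunit, the levels were 244, 133 and 109 CPM in StCsm(EGFP) embryos, against 297, 209 and 156 CPM in mock embryos, with -0.49 ± 0.07. For rpl22l1 they were 40.9, 21.4 and 19.3 CPM in StCsm(EGFP) embryos, against 49.2, 38.7 and 23.6 CPM in mock embryos, with -0.48 ± 0.11. The call of rpl22l1 was lost without batch 1 or without batch 2 (adjusted p = 0.104 and 0.242).

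The least negative values among the genes called belonged to rps24 (-0.27), rps13 (-0.30), rps18 (-0.30), the rpl5 copy ENSDARG00000015862 (-0.31) and rpl10 (-0.31). The proteins of rps24, rps13 and rps18 belong to the small subunit, and that of rpl10 joins the large subunit late in its assembly. The gene rps24 (ENSDARG00000039347) had 207, 123 and 123 CPM in StCsm(EGFP) embryos, against 218, 161 and 154 CPM in mock embryos. All 5 lost the call without batch 2 (adjusted p of 0.150 to 0.289, edgeR), and all but rps18 lost it without batch 1 (0.11 to 0.156). The call of rps24 was also lost without batch 3 (adjusted p = 0.11, edgeR).

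A further 9 genes were not called. Of these, rps16, rpl35, rpl12 and rpl7l1 had values of -0.27 to -0.18, with adjusted p of 0.104 to 0.190 (edgeR). The values of rps19bp1, with 59.4, 51.5 and 57.4 CPM in StCsm(EGFP) embryos against 59.2, 54.3 and 53.7 CPM in mock embryos, gave 0.00 ± 0.07. The gene rpl26 (ENSDARG00000102317) had 0.32 ± 0.36, with 23, 19 and 10 reads in StCsm(EGFP) libraries against 7, 13 and 14 reads in mock libraries.

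The gene with the lowest estimate, rps11l, was not called either (-1.07 ± 0.33, adjusted p = 0.107, edgeR). It had 12, 12 and 8 reads in StCsm(EGFP) libraries, against 17, 23 and 15 reads in mock libraries, or 0.41, 0.41 and 0.36 CPM against 0.86, 0.98 and 0.62 CPM. At 5 hpf all 3 batches had the opposite sign for rps11l, with 2.29, 6.41 and 5.16 CPM in StCsm(EGFP) embryos, against 2.16, 3.20 and 2.55 CPM in mock embryos. The difference of the injection effect between 5 hpf and the 128-cell stage was 1.80 ± 0.43 for this gene, with an adjusted p of 0.927 (edgeR).

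Genes listed as markers of organs at 24 hpf were also measured in these libraries. The summed level of 22 organ genes (muscle, blood, heart, notochord, neurons, lens and skin) at the 128-cell stage was 21.2, 5.72 and 6.47 CPM in StCsm(EGFP) embryos, against 86.3, 10.0 and 57.5 CPM in mock embryos. As a share of the mock level at 24 hpf this is 0.048, 0.013 and 0.015% in StCsm(EGFP) embryos, against 0.195, 0.023 and 0.130% in mock embryos, and between 1 and 7 of the 22 genes were at 0 in each of these libraries. At 5 hpf the same genes stood at 11.4 to 13.7% of that level in StCsm(EGFP) embryos and at 10.6 to 16.4% in mock embryos. Their sum is thus not specific to 24 hpf. At the 128-cell stage they were lower in StCsm(EGFP) embryos in each batch, by -0.147, -0.0098 and -0.116 percentage points of the mock level at 24 hpf. The difference for the ribosomal protein genes on the same scale was -0.880, -1.69 and -1.10 percentage points, and the source of the organ gene reads was not tested. The mitochondrially encoded genes took 7.45, 5.88 and 6.06% of reads in StCsm(EGFP) embryos, against 7.50, 7.52 and 5.91% in mock embryos, and their part in the result was not tested.

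At 5 hpf none of the 83 genes was called in either direction (edgeR, 0 at an unadjusted p under 0.05, and 0 with DESeq2's likelihood ratio test), as was the case for all 15819 genes tested with edgeR (0.00% called). The standard errors of the 83 genes had a median of 0.29, against 0.07 at the 128-cell stage. The lack of calls thus does not show a lack of change. The targeted EGFP was not called either after adjustment over all genes. It had 62.3, 111 and 79.4 CPM in StCsm(EGFP) embryos, against 110, 145 and 111 CPM in mock embryos, and was lower in every batch. The study reported its reduction at this stage with a likelihood ratio test for EGFP. The median of the 83 genes was 0.15, which stood for 3 batches that went apart. The summed level was 65964, 59309 and 34730 CPM in StCsm(EGFP) embryos, against 73332, 30395 and 44851 CPM in mock embryos, and the ratios of the batches were 0.90, 1.95 and 0.77. In batch 2, where the mock library had the low level described above, 80 of 83 genes were higher in StCsm(EGFP) embryos, and in batches 1 and 3 only 3 and 4 genes were. Without batch 2 the median turned to -0.25, again with 0 genes called.

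The share of mitochondrially encoded genes moved in the same libraries, with 14.8, 13.1 and 6.34% in StCsm(EGFP) embryos, against 15.8, 7.03 and 9.64% in mock embryos of 5 hpf, and its part in the ratios was not tested. The genes with the smallest p at this stage were rps11l, rpl26 and rpl13, a large-subunit gene. For rpl13 (ENSDARG00000099380) the levels were 801, 710 and 497 CPM in StCsm(EGFP) embryos, against 868, 353 and 532 CPM in mock embryos, with 0.26 ± 0.27 on the log2 scale (adjusted p = 1.00, edgeR). The groups overlapped for all 83 genes, while 1.85% of all genes did not overlap and were lower and 1.60% did not overlap and were higher.

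At 24 hpf again none of the genes was called (edgeR, 1 at an unadjusted p under 0.05, and 0 with DESeq2's likelihood ratio test), as for all 16986 genes tested with edgeR (0.00% called). The median was -0.21, with batch medians of 0.21, -0.68 and -0.13. Standard errors had a median of 0.23, again above the 0.07 of the 128-cell stage. The summed level was 329008, 162392 and 244063 CPM in StCsm(EGFP) embryos, against 282187, 266676 and 272440 CPM in mock embryos. The mock libraries thus lay within a narrow range, and of the StCsm(EGFP) libraries batch 1 lay above it and batches 2 and 3 lay below it. The organ genes had 103, 81.2 and 87.8% of their mock mean in these StCsm(EGFP) libraries, and the mitochondrially encoded genes took 18.3, 10.4 and 15.0% of reads, against 18.7, 13.2 and 16.1% in mock embryos, and their part in the result was not tested.

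Without batch 2 the median at 24 hpf was 0.03, with 0 genes called. The smallest p belonged to rps11l, rps16 and rps19, the last of which is the gene most often mutated in Diamond-Blackfan anaemia. The gene rps16 (ENSDARG00000045487) had 1289, 909 and 1122 CPM in StCsm(EGFP) embryos, against 1366, 1221 and 1369 CPM in mock embryos, with -0.26 ± 0.17 (adjusted p = 0.977, edgeR). For rps19 (ENSDARG00000030602) the levels were 2592, 1198 and 2011 CPM in StCsm(EGFP) embryos, against 2414, 2262 and 2300.5 CPM in mock embryos, with -0.32 ± 0.23 (adjusted p = 0.977, edgeR). For rps16 all 3 batches were lower, and for rps19 batch 1 was higher.

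**Figure D5:**
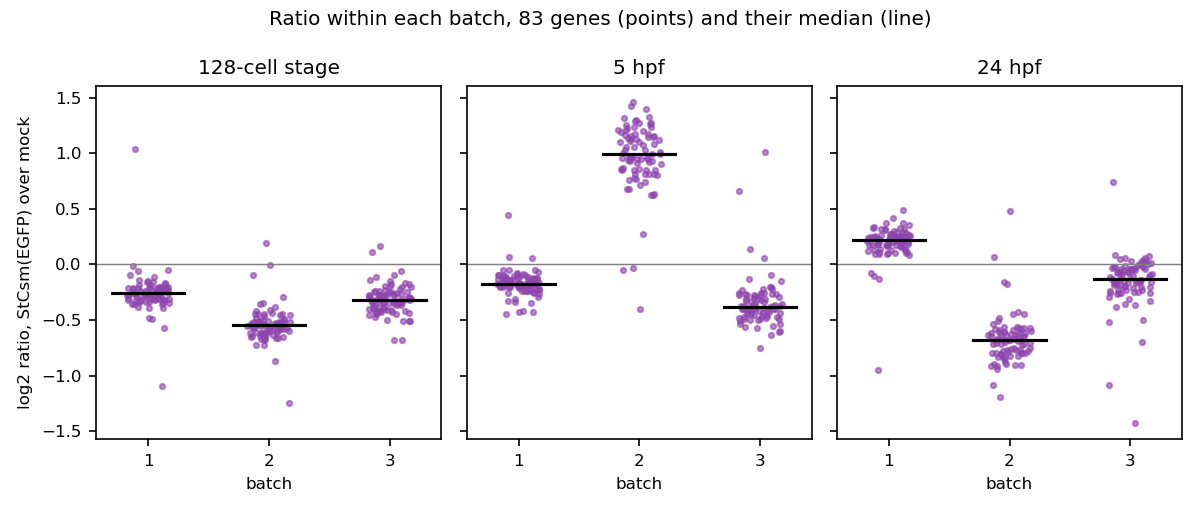
Log2 ratio of StCsm(EGFP) over mock within each batch for the 83 genes (points) and their median (black line), at the 3 stages. All 3 medians of the 128-cell stage are below 0. At 5 hpf the median of batch 2 (0.99) is above 0 and those of batches 1 and 3 (-0.18 and -0.38) are below. At 24 hpf the median of batch 1 (0.21) is above 0 and those of batches 2 and 3 (-0.68 and -0.13) are below.

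Calls at one stage and not at another do not show that the stages differ, so the difference itself was tested as an interaction. For 5 hpf against the 128-cell stage 0 of the 83 genes were called (edgeR, 2 at an unadjusted p under 0.05). The same fit called 0 of all 17590 genes tested (0.00%), with 607 at an unadjusted p under 0.05. The median difference of the 83 genes was 0.52, and 0.02 without batch 2. For 24 hpf against the 128-cell stage 0 genes were called (0 at an unadjusted p under 0.05), with a median of 0.16, where 0.0823% of all 19444 genes were called. That median was 0.04 without batch 1 and 0.33 without batch 2, each with 0 genes called, and 17 genes had an unadjusted p under 0.05 without batch 2.

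Other genes of translation were listed by symbol, namely ribosomal proteins that the symbol rule leaves out (fau and rack1 among them) and genes whose mRNAs carry a 5′ TOP tract in mammals. Of the 32 genes listed 25 were found in the files, and 23 were tested at the 128-cell stage, where 10 were called lower in StCsm(EGFP) embryos and 0 higher, with a median of -0.20, against 2.79% lower and 2.26% higher of all genes tested. The gene fau, whose product is a ribosomal protein fused to a ubiquitin-like protein, had -0.47 ± 0.10, and rack1, a scaffold on the small subunit, had -0.31 ± 0.07. The elongation factor genes eef1da, eef1g and eef1b2 had -0.36, -0.32 and -0.31, and naca, of the nascent chain complex, had -0.31. The values of tpt1, npm1a and pabpc1a, of which npm1a encodes a nucleolar chaperone and pabpc1a a poly(A) binding protein, were 0.06, 0.07 and -0.05 and were not called.

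In development, 21 of these 25 genes were called higher at 5 hpf than at the 128-cell stage, against 36.7% of all genes tested. At 24 hpf 17 were called higher and 5 lower than at 5 hpf, against 41.7% and 40.0% of all genes. Over both steps fau had a log2 fold change of 6.11 ± 0.28, and rack1 had 2.51 ± 0.24. In the second step eef2a.1, of an elongation factor, fell by 0.74, npm1a fell by 1.66 and nap1l1, of a histone chaperone, fell by 2.94 on the log2 scale (adjusted p = 0.00139, 8.66e-07 and 6.86e-08, edgeR). The median of the list was 1.29 for the first step and 1.31 for the second, beside 1.63 and 2.57 for the ribosomal protein genes.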

How the data were processed

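Poly(A)-selected RNA of 18 pools of 25 embryos was sequenced with unique molecular identifiers. Per the submitters' processing notes, bcl2fastq 2.16.10, UMI-tools 1.0.0, cutadapt 2.4, STAR 2.7.2b, HTSeq 0.11.2, R 3.6.1 and DESeq2 1.24.0 were used with GRCz11, and the annotation release is not given in the sources used here. The authors deposited raw counts per gene for each library, which were used here. The rows of reads not assigned to a gene (15.7 to 30.1% of all listed counts) were left out of library sizes and tests. Normalized tables were not used.

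Counts were fitted with edgeR 4.0.16 in R 4.3.3 (filterByExpr, TMM, robust quasi-likelihood test, Benjamini-Hochberg adjustment over all genes tested, threshold 0.1), with limma 3.58.1 loaded by it and DESeq2 1.42.0 as an alternative. Injection was tested within each stage, development in the 9 mock libraries, and interactions in the 12 libraries of both stages, each with the batch as a term, as in the study. The replicate number marks an independent experiment in which embryos of the same collection were divided between both injections. Deviations of libraries with the same number correlated with r of 0.38 to 0.57 at the 128-cell stage, 0.059 to 0.50 at 5 hpf and 0.17 to 0.39 at 24 hpf, against -0.44 to -0.13, -0.52 to 0.43 and -0.29 to 0.13 for libraries with different numbers. At 5 hpf 1 pair with different numbers thus exceeded 2 of the 3 pairs with the same number. The deviations were taken from the mean of each group and cancel within it. A positive correlation for the same number thus by itself lowers those for different numbers. Levels in CPM use TMM factors over all 18 libraries, and ratios within batches use those of the comparison, so that both can differ slightly. The edgeR p-values of these fits measure the spread between pools of embryos that remains after differences between batches are taken out. With few libraries per fit, the test estimates the spread of each gene in part from that of the other genes. The p-values, and the standard errors derived from the same test, thus rest in part on this shared estimate. The fits were also run on simulated data, drawn without batch effects and with independent noise for each gene. That run therefore cannot tell how the calls depend on the batches.

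Named genes were, in each comparison, the 5 highest and 5 lowest among the genes called with the same sign in every batch, genes of opposite sign, gene pairs and, where no gene was called, the 3 smallest p. Pairs with the same symbol were added after the files were seen, and other genes named in the text were chosen after their values were seen. The members and lists were chosen with earlier results of these data known. The alternatives were other scalings, filters and tests, a fit without the batch, a fit of all 18 libraries, the StCsm(EGFP) libraries in place of mock, and leaving out each batch. Levels per transcript length, and pair identity from protein sequences, were not analysed here. Some items, among them 5 of the 83 genes, are counted in the totals but are not reported here by name.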

Additional observations from a re-analysis of the deposited data

Results flagged for a closer look

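The injection effect on rps11l differed in sign between 2 stages. Within batches 1, 2 and 3 the log2 ratio of StCsm(EGFP) over mock was 0.06, 1.01 and 1.01 at 5 hpf and -1.10, -1.24 and -0.68 at the 128-cell stage, so that every batch was higher at 5 hpf and every batch lower at the 128-cell stage. The difference was 1.80 ± 0.43 (SE) in the interaction fit and did not pass the threshold over all genes tested (adjusted p = 0.927, edgeR). The gene had 27, 78 and 77 reads in StCsm(EGFP) libraries and 26, 37 and 34 reads in mock libraries at 5 hpf, and 12, 12 and 8 reads in StCsm(EGFP) libraries and 17, 23 and 15 reads in mock libraries at the 128-cell stage.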

How the results depend on the processing

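At the 128-cell stage 74 ribosomal protein genes were called lower in StCsm(EGFP) embryos with the replicate block (median of -0.38). Without the block 0 were called (median of -0.37), and 0 of all genes tested. A fit of all 18 libraries, which kept a block for each batch within each stage, also called 0 (median of -0.38). That fit called 6 of all genes tested, and estimates the spread of each gene over all 3 stages together. Leaving out 1 batch gave 44 to 76 genes, with 44 without batch 2, beside 102 to 875 of all genes. Other scalings, filters, a threshold of 0.05 and the DESeq2 likelihood ratio test gave 64 to 78 genes. At the threshold of 0.1, calls over all genes ran from 592 with the likelihood ratio test to 1513 without a filter on low counts. The latter setting gave the 78 genes, and the main fit called 783 of all genes. The block changed no call of the members at 5 hpf or 24 hpf. The medians of the injection comparisons, leaving out 1 batch, lay between -0.25 and 0.40 (5 hpf) and between -0.42 and 0.028 (24 hpf), and both turned their sign without batch 2. With library totals the developmental medians were 0.98 for the first step and 3.18 for both steps, and over both steps rps19bp1 had -0.76 and rpl7l1 -0.074. With library totals the share of lower calls among all genes was 66.3% for the first step and 60.7% for both steps, against 49.4% and 45.9% with TMM, and 42.6% against 55.2% for the injection at the 128-cell stage. Without the mitochondrially encoded genes in the total, the share of reads in mock embryos of 24 hpf was 23.4%, against 19.6%. The order of levels per transcript length was not run, since no lengths were at hand. The estimates of genes with few reads (rps11l and rpl26) are limited by their low counts. In mock libraries of 24 hpf rpl26 had 48, 58 and 65 reads, against 25023, 29837 and 30759 for rpl27, another large-subunit gene. Whether the identifier counted as rpl26 captures all reads of that gene was not tested.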
